A study of Mus musculus with 18 samples.

Results

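The 10 genes described here encode tissue inhibitors of metalloproteinases (Timp1, Timp2 and Timp3), metalloproteinases (Mmp2, Mmp3 and Mmp14) and proteins of the wound matrix (Thbs1, Lox, Fn1 and Spp1). They were chosen by symbol, all 10 were found, and they are 10 of the 24346 gene symbols measured. Their transcripts were compared in septic mice that inhaled hydrogen gas and in septic mice that did not. H2 mice were male C57BL/6 mice, 9 weeks old, that underwent cecal ligation and puncture (CLP, in which gut bacteria leak into the abdomen) and breathed 7% H2 without a break from the end of surgery. Control mice were of the same sex, strain and age and had the same CLP without the gas, so every mouse in the study carried the injury. Liver, intestine and lung were taken 24 h after CLP and sequenced as poly(A) RNA, with n = 3 libraries in each of the 6 groups. The H2 mice were kept together in 1 box, so the gas and the housing cannot be told apart. The labels do not tell which organs came from the same mouse, and the p-values measure the spread between these libraries.

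Metalloproteinases are zinc enzymes that cut collagens, proteoglycans and fibronectin, and TIMPs block them by binding the active site. In an injured tissue the balance of enzyme and inhibitor sets how fast matrix is removed. Thrombospondin, fibronectin and osteopontin are found in the provisional matrix on which cells migrate, and lysyl oxidase crosslinks the collagen and elastin laid down later. Timp1 and Mmp14 are known as genes that inflammatory cytokines and wounding induce, and Timp2 as a gene with a more steady level.

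Promoter sequences from RefSeq (GRCm38.p6, from 250 bases before to 50 bases after the transcript start) matched 6 of the 10 genes by symbol. They are printed for 3 genes whose values differ in direction below: Timp1 and Mmp14, which were lower in H2 mice in each organ, and Timp2, which was higher in the liver and lung and lower in the intestine. Capitals mark matches, on either strand, to an Ets core (AGGAAG), a GC box (GGGCGG) or an AP-1-like element (TGAGTAA, a form added after the sequences had been read). The Timp1 window is chrX:20869916-20870215 on the plus strand, that of Mmp14 is chr14:54431348-54431647 on the plus strand, and that of Timp2 is chr11:118355362-118355661 on the minus strand.
Timp1 promoter: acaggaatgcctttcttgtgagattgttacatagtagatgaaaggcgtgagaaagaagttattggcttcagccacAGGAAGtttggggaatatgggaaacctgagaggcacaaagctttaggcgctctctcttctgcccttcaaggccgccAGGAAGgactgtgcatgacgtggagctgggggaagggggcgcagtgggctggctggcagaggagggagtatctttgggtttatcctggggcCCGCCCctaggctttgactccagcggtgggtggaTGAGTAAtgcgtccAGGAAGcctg
Mmp14 promoter: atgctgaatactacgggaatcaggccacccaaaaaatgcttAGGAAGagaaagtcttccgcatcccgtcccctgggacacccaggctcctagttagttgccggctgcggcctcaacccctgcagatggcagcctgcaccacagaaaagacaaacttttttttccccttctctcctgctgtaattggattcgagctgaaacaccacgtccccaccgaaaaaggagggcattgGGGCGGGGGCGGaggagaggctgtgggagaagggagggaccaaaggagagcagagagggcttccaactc
Timp2 promoter: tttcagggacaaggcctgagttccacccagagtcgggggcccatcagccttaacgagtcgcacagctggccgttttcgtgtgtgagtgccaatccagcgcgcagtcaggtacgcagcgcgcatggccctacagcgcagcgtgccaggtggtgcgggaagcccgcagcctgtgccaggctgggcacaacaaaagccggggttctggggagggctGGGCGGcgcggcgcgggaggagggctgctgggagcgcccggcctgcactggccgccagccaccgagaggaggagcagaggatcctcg
The Timp1 window holds Ets cores that begin at -175, -99 and +41 from the start, a GC box at -8 and the AP-1-like element at +27. The Mmp14 window holds 1 Ets core, at -209, and GC boxes at -19 and -13 that run into each other, and the Timp2 window holds 1 GC box, at -37. Of 32851 promoter windows of this length, 35.4% hold an Ets core, 35.7% a GC box and 2.68% the AP-1-like element. The palindromic AP-1 element TGANTCA, present in 7.81% of the windows, occurs in that of Mmp3 as TGAGTCA at -46 and in none of the windows of Timp1, Timp2, Timp3, Mmp14 and Spp1. The STAT motif TTCNNNGAA, present in 8.30% of the windows, has no match in the windows of the 6 genes. These matches describe the letters and were not tested for binding.

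All levels are given in the deposited unit, FPKM, which divides a gene's fragments by transcript length and by the mapped fragments of the library. The shallowest library was H2 intestine 2, with an implied depth of 8.91 M fragments, and the deepest H2 lung 2, with 16.2 M. Each organ held its defining marker: Alb (serum albumin) was 9335 to 21978 FPKM in liver and at most 5.95 FPKM elsewhere, Vil1 (villin of the enterocyte brush border) 332 to 704 FPKM in intestine and at most 0.450 FPKM elsewhere, and Sftpc (surfactant protein C) 20779 to 33492 FPKM in lung and at most 1.17 FPKM elsewhere. H2 intestine 2 stood apart by a summed FPKM of 1142966, against 712858 to 850609 in the other intestine libraries. A change is the difference, H2 minus control, of mean log2(FPKM + 1), ± SE, and a gene is called where limma's adjusted p over all tested genes is under 0.05. In bulk tissue, fewer cells of a type and less RNA per cell cannot be told apart.

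Timp1, the secreted inhibitor that is the most inducible of its family, was lower in every H2 library than in every control library of the same organ, in all 3 organs. In the liver it was 11.9, 5.78 and 11.3 FPKM with H2 and 35.8, 15.7 and 23.7 FPKM in controls, a log2 change of -1.27 ± 0.35. In the intestine it was 13.4, 9.47 and 19.6 FPKM with H2 and 67.1, 25.1 and 62.4 FPKM in controls, a log2 change of -1.73 ± 0.40. In the lung it was 94.1, 71.1 and 79.3 FPKM with H2 and 639, 208 and 121 FPKM in controls, a log2 change of -1.63 ± 0.56. The H2 lungs lay close together, and control lung 1 stood far above the other controls. Without control lung 1 the lung change of Timp1 was -0.96 ± 0.25. No single organ passed limma's test (adjusted p = 0.168 in liver, 0.333 in intestine and 0.184 in lung), while the mean of the 3 organ changes did, at -1.54 ± 0.30 with a limma adjusted p of 0.0116, and Timp1 fell. Timp1 lies at chrX:20870166-20874735 (mm10) inside Syn1, which is on the opposite strand and reached at most 0.672 FPKM in any library. Whether strand was used in counting is not stated in the sources used here.

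Timp2 did not follow Timp1. This inhibitor also takes part, with Mmp14, in activating the precursor of Mmp2 at the cell surface. It was higher in each H2 liver (1.26, 1.96 and 2.13 FPKM) than in any control liver (0.764, 1.11 and 0.617 FPKM), a log2 change of 0.60 ± 0.17. It was also higher in each H2 lung (127, 152 and 147 FPKM) than in any control lung (68.8, 118 and 116 FPKM), a log2 change of 0.53 ± 0.22 that was 0.27 ± 0.11 without control lung 1. In the intestine the order was turned round, with 3.88, 2.51 and 6.81 FPKM in H2 mice and 8.97, 9.65 and 7.76 FPKM in controls, a log2 change of -0.93 ± 0.28. None of these passed limma's test (adjusted p = 0.168 in liver, 0.353 in intestine and 0.216 in lung), and the mean over organs was 0.06 ± 0.15 (limma adjusted p = 0.793). The liver values lie near 1 FPKM, where the log2(FPKM + 1) scale understates a change. Timp2 spans chr11:118301069-118355740 (mm10), and the annotation places Cep295nl in the same region on the same strand.

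Timp3, the inhibitor that stays bound to the matrix and also blocks ADAM17, was lower in each H2 intestine (7.49, 5.86 and 10.2 FPKM) than in each control intestine (13.6, 13.1 and 11.2 FPKM), a log2 change of -0.65 ± 0.21. In the liver the groups overlapped, at 2.46, 2.95 and 2.97 FPKM with H2 and 4.45, 2.22 and 5.23 FPKM in controls. In the lung, where Timp3 was the most abundant of the 3 inhibitors in each library except control lung 1, they overlapped too, at 259, 358 and 409 FPKM with H2 and 335, 463 and 331 FPKM in controls. The lung change was -0.14 ± 0.21 and turned to 0.10 after quantile normalization. The mean over organs was -0.38 ± 0.14 and was not called (limma adjusted p = 0.0870).

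**Figure D1:**
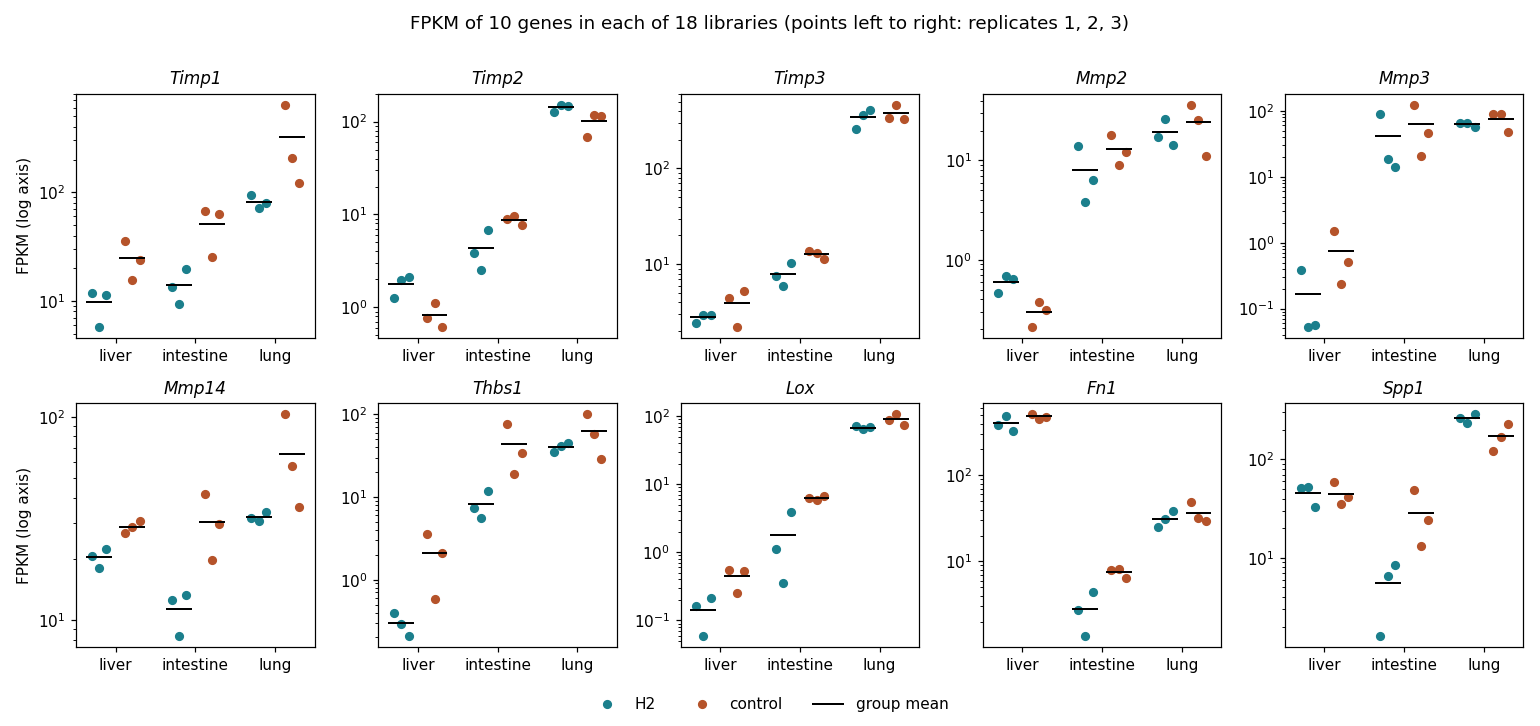
FPKM of the 10 genes in each library, on log axes, with H2 libraries left of control libraries in each organ and a bar at each group mean. Timp1 and Mmp14 lie lower in each H2 library than in each control library of the same organ, and Timp2 lies higher in the H2 livers and lungs.

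The same values can be read as the make-up of the TIMP transcripts. Per length, Timp1 made up 76.2%, 54.1% and 69.0% of the summed TIMP FPKM in H2 livers and 87.3%, 82.5% and 80.2% in control livers. In the lung its share was 19.6%, 12.2% and 12.5% with H2 and 61.3%, 26.4% and 21.3% in controls, so that the groups did not overlap in either organ. An exact two-sided permutation test over the libraries gave p = 0.1 in both, the smallest value that 3 against 3 libraries allow, so these tests could not pass. In the intestine the H2 libraries lay within 1 percentage point of each other (54.0%, 53.1% and 53.5%), and the controls spread around them at 74.8%, 52.4% and 76.7% (exact permutation p = 0.4). The summed TIMP level was 26.4 ± 9.48 FPKM in H2 intestines and 73.0 ± 22.1 FPKM in control intestines (SD, n = 3 each, exact permutation p = 0.1), and 14.3 ± 3.11 against 29.9 ± 10.99 FPKM in the liver (H2 against control, exact permutation p = 0.1). In the lung the sums were 566 ± 78.2 FPKM with H2 and 800 ± 237 FPKM in controls and overlapped (exact permutation p = 0.3).

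**Figure D2:**
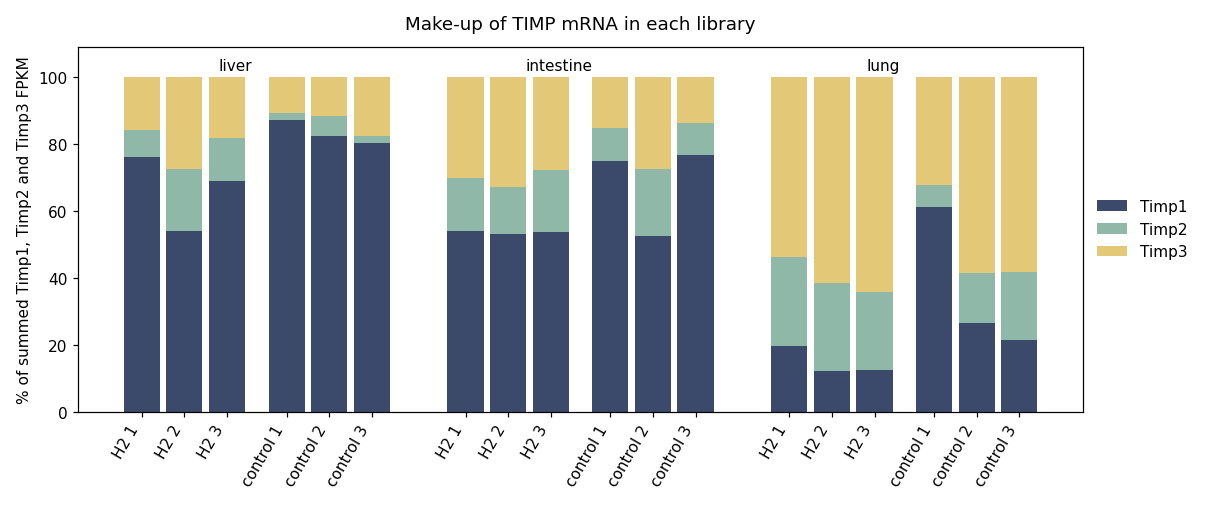
Percent of the summed TIMP FPKM taken by Timp1, Timp2 and Timp3 in each library, H2 libraries left of controls in each organ. Timp1 takes 12.2% to 19.6% in the H2 lungs, against 21.3% to 61.3% in the control lungs.

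Among the enzymes, Mmp14 was the one that passed the test over the organs. This membrane-anchored collagenase, which activates the precursor of Mmp2, was lower in every H2 library than in every control library of its organ. It was 20.6, 18.03 and 22.3 FPKM in H2 livers and 26.7, 28.6 and 30.6 FPKM in control livers, a log2 change of -0.48 ± 0.12. It was 12.5, 8.33 and 13.3 FPKM in H2 intestines and 41.9, 19.6 and 29.7 FPKM in control intestines, a log2 change of -1.31 ± 0.29. It was 31.8, 30.7 and 33.9 FPKM in H2 lungs and 103, 57.1 and 35.8 FPKM in control lungs, a log2 change of -0.87 ± 0.35. The H2 lungs differed by a few FPKM and control lung 3 was close above them, and without control lung 1 the lung change was -0.48 ± 0.20. Limma's adjusted p was 0.168, 0.326 and 0.207 in liver, intestine and lung, and Mmp14 fell in the mean over organs by 0.89 on the log2 scale (SE 0.17, limma adjusted p = 0.0130). It lies at chr14:54431612-54445364 on the plus strand (mm10).

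Mmp2 and Mmp3 did not pass any of these tests. Mmp2, gelatinase A, was 14.04, 3.85 and 6.39 FPKM in H2 intestines and 18.2, 9.01 and 12.2 FPKM in control intestines, and 17.2, 26.1 and 14.4 FPKM in H2 lungs against 36.5, 25.4 and 11.004 FPKM in control lungs, so both organs overlapped. In the liver, under the filter of a mean of 1 FPKM, it was 0.465, 0.688 and 0.634 FPKM with H2 and 0.211, 0.376 and 0.315 FPKM in controls. The H2 livers thus lay above every control liver at a level under 1 FPKM. Mmp3, stromelysin, which cleaves proteoglycans and activates other metalloproteinases, varied widely between replicates in the intestine, where it was 89.5, 18.9 and 14.2 FPKM with H2 and 124, 20.5 and 46.4 FPKM in controls. In the lung it was 65.5, 64.6 and 56.2 FPKM with H2 and 88.3, 90.4 and 48.2 FPKM in controls, and in the liver it was under the filter, with at most 0.392 FPKM with H2 and at most 1.498 FPKM in controls. Over the 3 organs the change was -0.22 ± 0.23 for Mmp2 and -0.50 ± 0.35 for Mmp3 (limma adjusted p = 0.544 and 0.346).

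Of the wound matrix genes, Thbs1 was lower in every H2 library than in every control library of the liver and intestine. Thrombospondin 1, a platelet and stromal protein that activates latent TGF-beta, was 7.40, 5.62 and 11.9 FPKM in H2 intestines and 77.3, 18.8 and 34.0 FPKM in control intestines, a log2 change of -2.08 ± 0.48. In the liver it was 0.396, 0.288 and 0.208 FPKM with H2 and 3.61, 0.584 and 2.13 FPKM in controls, a log2 change of -1.13 ± 0.36 at a level near the filter. Without control liver 1 the gene falls under that filter in the liver. In the lung the groups overlapped, at 35.4, 41.5 and 44.7 FPKM with H2 and 101, 57.5 and 28.6 FPKM in controls, and the change of -0.44 ± 0.41 there was -0.01 ± 0.29 without control lung 1 and -0.90 without control lung 3. Limma's adjusted p was 0.177, 0.326 and 0.514 in liver, intestine and lung. Thbs1 fell in the mean over organs by 1.22 on the log2 scale (SE 0.28, limma adjusted p = 0.0234). It lies at chr2:118111876-118127133 on the plus strand (mm10).

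Lox, the lysyl oxidase that crosslinks collagen and elastin, was lower in every H2 library than in every control library of its organ, as Timp1 and Mmp14 were. In the intestine it was 1.13, 0.359 and 3.92 FPKM with H2 and 6.30, 5.86 and 6.77 FPKM in controls, a log2 change of -1.59 ± 0.42. In the lung it was 71.6, 64.1 and 69.0 FPKM with H2 and 87.5, 108 and 73.5 FPKM in controls, a log2 change of -0.37 ± 0.15 that was -0.23 without control lung 2. In the liver it was under the filter, at 0.162, 0.059 and 0.210 FPKM with H2 and 0.552, 0.249 and 0.531 FPKM in controls. Lox is therefore left out of the counts of tested liver genes below. How common this order in every organ is among all genes was not counted, for Lox as for Timp1 and Mmp14. Limma's adjusted p for Lox was 0.346 in the intestine and 0.213 in the lung. In the mean over organs Lox fell by 0.76 on the log2 scale (SE 0.18, limma adjusted p = 0.0234).

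Fn1, fibronectin, which hepatocytes secrete into plasma and stromal cells lay down as fibrils, was lower in each H2 intestine (2.73, 1.36 and 4.43 FPKM) than in each control intestine (7.997, 8.17 and 6.49 FPKM), a log2 change of -1.23 ± 0.29 (limma adjusted p = 0.338). In the liver, its main source, it was 387, 489 and 328 FPKM with H2 and 517, 454 and 482 FPKM in controls, and in the lung 25.5, 30.8 and 38.4 FPKM with H2 and 48.7, 32.0 and 29.6 FPKM in controls. Both organs overlapped. The mean over organs fell by 0.57 on the log2 scale (SE 0.15, limma adjusted p = 0.0321). The intestine gave the largest of the 3 organ changes to this call, as it did for Timp1, Mmp14, Thbs1 and Lox.

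Spp1, osteopontin, a secreted ligand of integrins and CD44 that macrophages and epithelia make, had H2 values below the controls in the intestine and above them in the lung. In the intestine it was 1.61, 6.50 and 8.50 FPKM with H2 and 48.9, 13.2 and 24.1 FPKM in controls, a log2 change of -2.19 ± 0.57. In the lung it was higher in each H2 library (266, 232 and 289 FPKM) than in each control library (121, 168 and 227 FPKM), a log2 change of 0.65 ± 0.23 that was 0.42 ± 0.17 without control lung 1. In the liver it overlapped, at 50.6, 52.3 and 32.9 FPKM with H2 and 58.8, 35.0 and 41.2 FPKM in controls. Limma's adjusted p was 0.346 in the intestine, 0.186 in the lung and 0.982 in the liver, and the mean over organs was -0.51 ± 0.26 (limma adjusted p = 0.199).

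Counted over the genes, 7 of the 10 passed the filter in the liver and all 10 in the intestine and lung. Limma called 0 of 7 in the liver, where 0.0199% of 10041 tested genes were called, 0 of 10 in the intestine (0.0084% of 11910) and 0 of 10 in the lung (0.00745% of 13424). At an unadjusted p under 0.05 there were 4 of 7, 8 of 10 and 5 of 10, against 21.0%, 12.5% and 23.1% of all tested genes. The H2 libraries lay below every control library for 3 of the 7 liver genes (Timp1, Mmp14 and Thbs1), against 13.1% of all tested liver genes, and above every control for 1 (Timp2), against 12.2%. In the intestine they lay below every control for 8 of 10, all but Mmp2 and Mmp3, against 8.75% of all tested genes, and above for 0, against 10.6%. In the lung they lay below for 3 (Timp1, Mmp14 and Lox), against 15.9%, and above for 2 (Timp2 and Spp1), against 14.1%. These shares are for single organs. The share of all genes that lay below every control in every organ was not counted. The median log2 change of the 10 genes was -1.27 in the intestine and -0.22 in the lung, beside 0.02 and -0.00358 over all tested genes.

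In the mean over the 3 organs, limma called 5 of the 10, Timp1, Mmp14, Thbs1, Lox and Fn1, and all of them fell. Of 13362 tested genes 9.62% were called, 5.23% as lower and 4.39% as higher. The median change of the 10 genes was -0.54, beside 0.00273 over all tested genes. The calls of Timp1 and Mmp14 held without any 1 of the 18 libraries (highest limma adjusted p 0.0307 and 0.0330), while Lox lost its call without control liver 3 (0.0515) and Thbs1 without control liver 1 (0.0511) or control liver 3 (0.0515). Fn1 lost it in 9 of the 18, without control liver 1 or 3, H2 liver 1 or 3, control intestine 1, control lung 1 or 2, or H2 lung 1 or 2 (0.0514 to 0.0694). Without control liver 3 the number called of the 10 was 2, without control liver 1 it was 3, and without control liver 2 it was 6, with Timp3 (0.0144). Where the 3 organs of a treatment and replicate number were averaged first, in case they share a mouse, 0 of the 10 were called, with limma adjusted p from 0.0736 for Mmp14 to 0.104 for Thbs1. Over all other settings that keep all libraries these 5 kept their calls.

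**Figure D3:**
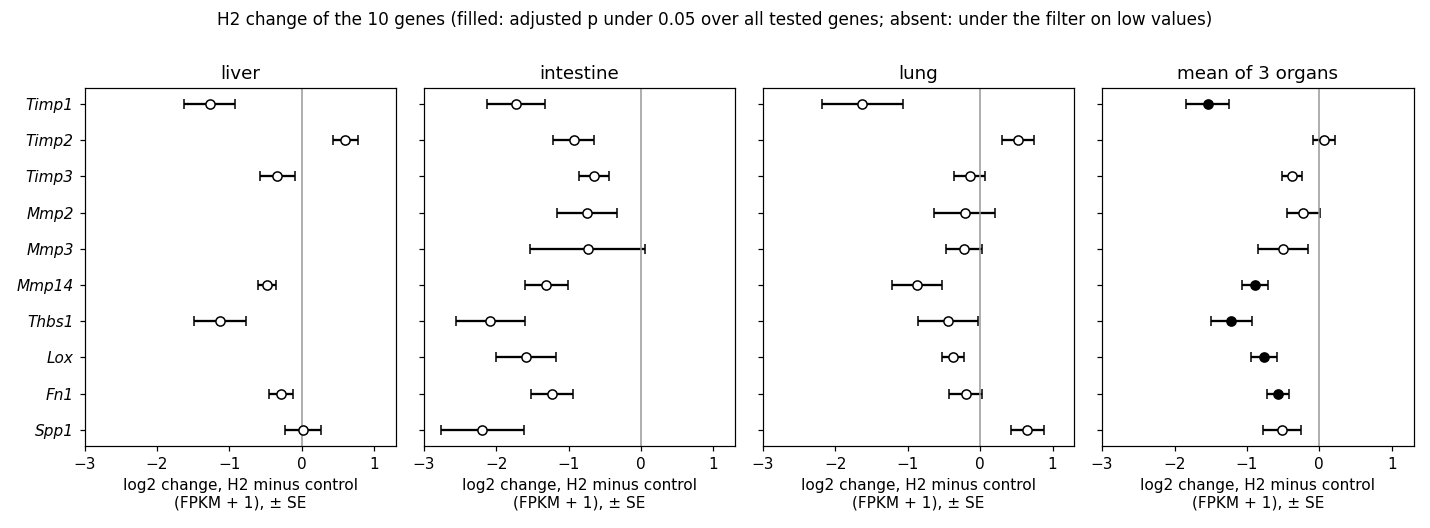
Difference of mean log2(FPKM + 1), H2 minus control, with 1 SE either side, for each gene in liver, intestine and lung and as the mean over the organs; filled marks are called by limma. Filled marks stand for the mean over organs of Timp1, Mmp14, Thbs1, Lox and Fn1. The Timp3 mark in lung is at -0.14, and its value of 0.10 after quantile normalization is not drawn.

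Fat cell transcripts were also lower in the H2 intestines. The summed level of the 6 fat cell markers was 42.7, 47.6 and 214 FPKM in H2 intestines and 398, 298 and 287 FPKM in control intestines. The fat hormone Adipoq was 0.0704, 0.0997 and 11.6 FPKM in H2 intestines and 20.8, 17.5 and 14.5 FPKM in controls. All 5 markers tested in the intestine had lower values in H2 mice, with a median log2 change of -2.91, and 4 of the 5 lay below every control. Over all tested intestine genes, 8.75% lay below every control and 10.6% above. H2 intestines 1 and 2 thus held almost no Adipoq, and H2 intestine 3 lay between them and the controls. All 7 enterocyte markers tested in the intestine had higher values in H2 mice, with a median log2 change of 0.68 and 0 of the 7 apart between the groups. Of 8 smooth muscle markers 7 had lower values there, with a median of -0.45 and 0 apart. Without H2 intestines 1 and 2, a choice made after the data were seen, limma called 1 of the 10 in the mean over organs, Lox, at -0.42 ± 0.09 (adjusted p = 0.0454), against -0.76 with all libraries. Timp1 was then -1.38 ± 0.35 and Mmp14 -0.81 ± 0.21 (limma adjusted p = 0.0636 for both), Thbs1 -1.04 ± 0.34 (0.0961) and Fn1 -0.38 ± 0.13 (0.112). In the intestine itself the changes were then -0.32 for Timp2 (-0.93 with all libraries), -0.57 for Lox (-1.59), -0.28 for Timp3 (-0.65) and -0.65 for Fn1 (-1.23). Those of Timp1, Mmp14, Thbs1 and Spp1 were -1.23 (-1.73 with all libraries), -1.08 (-1.31), -1.55 (-2.08) and -1.46 (-2.19). The changes of Mmp2 and Mmp3 were larger than with all libraries, at -0.88 (-0.74) and -1.72 (-0.74). That fit has 2 libraries fewer, and its lone H2 intestine is assumed to vary like the other groups. The part of fat tissue and of the other cell types in the intestinal result was not tested.

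**Figure D4:**
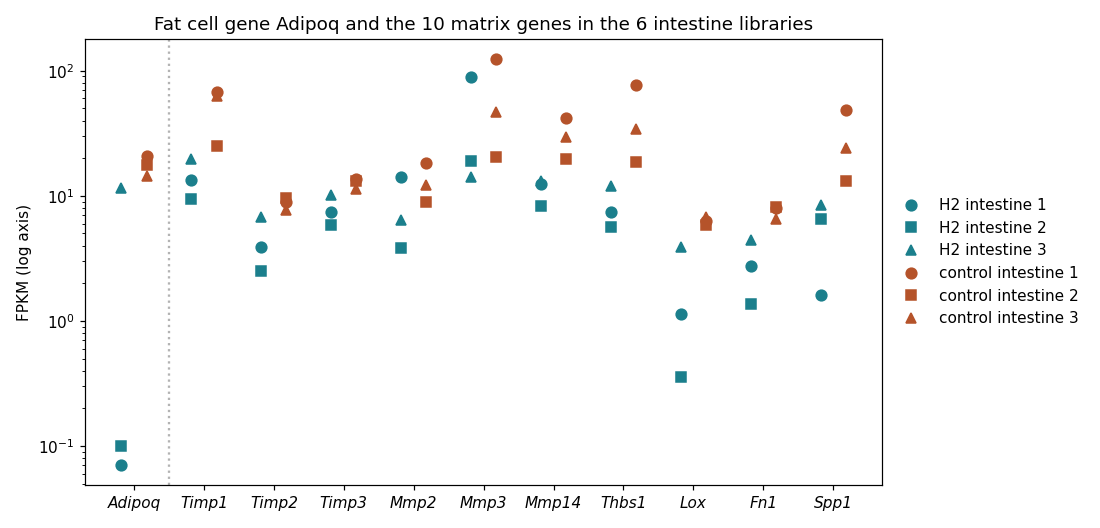
FPKM (log axis) of the fat cell gene Adipoq, left of the dotted line, and of the 10 genes in the 6 intestine libraries, with the H2 libraries left of the control libraries for each gene and 1 symbol per replicate number. Adipoq is 0.0704 and 0.0997 FPKM in H2 intestines 1 and 2, 11.6 FPKM in H2 intestine 3 and 14.5 to 20.8 FPKM in the controls, and Mmp2 and Mmp3 are the genes whose groups overlap.

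Markers of other cells were summed and also counted, with 0 of them called in any single organ. The summed fibroblast markers (12 genes) overlapped between the groups in each organ: 164, 135 and 136 FPKM in H2 livers and 168, 123 and 170 FPKM in control livers, 284, 140 and 154 FPKM in H2 intestines and 253, 229 and 263 FPKM in control intestines, and 704, 618 and 566 FPKM in H2 lungs and 688, 723 and 601 FPKM in control lungs. Gene by gene, 9 of 10 tested in the intestine had lower values in H2 mice (median log2 change -0.24, 1 below every control). In the lung 4 of 12 did (median 0.25, 5 above every control). Over all tested genes, 8.75% lay below every control in the intestine and 14.1% above every control in the lung. Macrophage and monocyte markers (14 genes) were 292, 248 and 240 FPKM in H2 livers and 942, 363 and 834 FPKM in control livers, and the groups did not overlap. Among them Cd14, the endotoxin co-receptor, was at 99.2, 57.7 and 63.2 FPKM in H2 livers and 807, 229 and 705 FPKM in control livers. Without Cd14 the sum was higher in each H2 liver (193, 190 and 177 FPKM) than in each control liver (135, 134 and 129 FPKM). Of the 13 markers that passed the filter in the liver, Cd14 among them, 4 had lower values in H2 livers, with a median of 0.30. Above every control lay 8 of these 13, against 12.2% of all tested genes. The sum of the same markers overlapped in the lung (6044, 6208 and 5744 FPKM with H2 and 4898, 4642 and 6551 FPKM in controls) and in the intestine (319, 247 and 270 FPKM with H2 and 239, 302 and 240 FPKM in controls). In the lung, however, 12 of the 14 had lower values in H2 mice, with a median of -0.36. Of these, 7 lay below every control, against 15.9% of all tested genes. Summed platelet markers overlapped in each organ, as did summed neutrophil markers, which in the intestine were 435, 270 and 246 FPKM with H2 and 1116, 127 and 420 FPKM in controls, with 7 of 7 tested lower in H2 mice (median -0.38, 0 apart). Fat cell markers in the liver were 51.1, 37.1 and 51.0 FPKM with H2 and 146, 64.7 and 99.3 FPKM in controls, while Adipoq was at 0 in all H2 livers and at most 0.073 FPKM in control livers. Markers of hepatic stellate cells, the matrix-forming cells of the liver, were higher in each H2 liver (18.7, 14.5 and 12.8 FPKM in sum over 6 genes) than in each control liver (9.71, 12.4 and 11.3 FPKM). Smooth muscle markers were too (10.3, 12.8 and 11.7 FPKM with H2 and 7.27, 9.30 and 8.04 FPKM in controls). In the liver 3 of the 6 stellate and 3 of the 8 smooth muscle markers passed the filter, and all of these had higher values with H2. In each list 1 lay above every control, against 12.2% of all tested genes. In the same livers Timp2 lay above every control library, as 12.2% of all tested genes did. Timp1, Mmp14 and Thbs1 lay below every control library, as did 13.1% of all tested genes. Under the filter, Mmp2 lay above and Lox below every control library. The hepatocyte list, which holds Apoa1, an apolipoprotein gene that the gut also expresses, summed to 7965, 15894 and 7488 FPKM in H2 intestines and 6432, 3330 and 5280 FPKM in control intestines. Of the endothelial markers, 3 of 9 tested had lower values in H2 livers (median 0.26). In H2 intestines 7 of 10 did (median -0.16), and in H2 lungs 1 of 10 (median 0.58). In the mean over organs limma called 3 of the 10 endothelial markers, all higher (Kdr 0.57 ± 0.13, Emcn 0.78 ± 0.19 and Tek 0.78 ± 0.22). Of all tested genes 4.39% were called as higher there and 5.23% as lower. That fit counts the libraries as independent, and with 1 mean per treatment and number 16 genes were called, against 1285. Of the 14 macrophage and monocyte markers 2 were called, both lower, Cd14 (-1.71 ± 0.32) and Ly6c2 (-0.71 ± 0.13). The list as a whole was evenly split, with 7 of the 14 lower and a median of 0.02. The part of these cells in the changes of the 10 genes was not tested.

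The response of these genes to H2 was then compared between organs. A moderated F test over all 18 libraries called 0.808% of 13362 genes as different between the organs and 0 of the 10. Timp2 and Spp1 came nearest, with limma adjusted p of 0.0604 and 0.0661, and Lox, Fn1, Thbs1 and Mmp14 were at 0.159, 0.185, 0.320 and 0.445. The Timp2 change was 1.53 ± 0.36 higher in the liver than in the intestine and -1.46 ± 0.36 in the intestine relative to the lung. The Spp1 change in the intestine was -2.84 ± 0.64 relative to the lung, and that in the liver was 2.21 ± 0.64 relative to the intestine. Taken as a single contrast, and adjusted over genes but not over the 3 pairs of organs, Spp1 in intestine relative to lung had a limma adjusted p of 0.0490 and Timp2 of 0.0575. Both genes were called without control liver 2 and without control lung 3, both together with Lox and Fn1 without H2 intestine 3, and Spp1 without control intestine 2.

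The level of most of these genes differed by organ. In H2 mice, Timp1, Timp2, Timp3, Mmp2, Mmp3, Thbs1 and Lox were in the mean highest in the lung and lowest in the liver, and neighbouring organs were apart except for Timp1 in intestine and liver and Mmp3 in lung and intestine. Controls had the same order, but the libraries of lung and intestine overlapped for Mmp2, Mmp3 and Thbs1, and those of intestine and liver for Timp1. Lung over liver came to 122 times for Timp3, 79.7 times for Timp2 and 475 times for Lox in H2 mice, and to 94.9, 121 and 202 times in controls. Some of these ratios divide by liver means under 1 FPKM. These were 0.144 FPKM for Lox in H2 mice, 0.444 FPKM for Lox in controls and 0.831 FPKM for Timp2 in controls. Fn1 ran the other way, with liver over intestine at 141 times in H2 mice and 64.1 times in controls and the lung in between. Spp1 was highest in the lung, at 47.4 times the intestinal level in H2 mice and 5.98 times in controls, and the libraries of liver and intestine were apart in H2 mice and overlapped in controls. Mmp14 was the most even of the 10, at 2.83 times between its highest and lowest organ in H2 mice and 2.28 times in controls. Its order in H2 mice was lung, liver and intestine, each apart from the next, and in controls lung, intestine and liver, with neighbours overlapping. These are descriptions of levels per length and were not tested.

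Other genes of matrix turnover were read from lists by role, in the mean over the 3 organs. In each single organ limma called 0 of them. The fit of the mean counts the 18 libraries as independent. With 1 mean per treatment and number it called 16 of all tested genes, against 1285, and the lists were not read there. Of 25 other metalloproteinases tested, 3 fell and 0 rose: the aggrecanases Adamts4 (-1.86 ± 0.43) and Adamts9 (-1.09 ± 0.21), and the sheddase Adam9 (-0.44 ± 0.11). Among the other protease inhibitors the broad inhibitor A2m fell (-0.47 ± 0.07). Of 4 plasminogen system genes 2 fell, the urokinase receptor Plaur (-1.42 ± 0.36) and tissue plasminogen activator Plat (-1.40 ± 0.39). Of 15 receptors for matrix, 3 fell, the fibronectin receptor chain Itga5 (-0.69 ± 0.16), Itgb3 (-0.66 ± 0.18) and Cd44 (-0.65 ± 0.19), and 2 rose, Itga8 (0.73 ± 0.16) and Itgb5 (0.56 ± 0.14), both chains of integrins that bind RGD ligands.

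Of 22 other wound matrix genes, Vcan (versican, -0.65 ± 0.18) and Nov (a CCN family protein, -0.26 ± 0.07) fell and Fbln5 (fibulin 5 of elastic fibres, 0.48 ± 0.14) rose. Of 12 genes of collagen processing and crosslinking other than Lox, limma called 0, and 2 had the smallest p: Pcolce, an enhancer of procollagen cleavage (0.34 ± 0.12), and Loxl1, a lysyl oxidase relative (-0.40 ± 0.15). Of 20 regulators of these genes 5 fell and 0 rose: the immediate early factor Egr1 (-1.33 ± 0.40), the Ets factor Ets2 (-0.64 ± 0.13), Stat3 (-0.63 ± 0.13), Tgfb1 (-0.54 ± 0.13) and the TGF-beta receptor Tgfbr2 (-0.43 ± 0.11). Over all genes tested in this fit, 5.23% fell and 4.39% rose. The lists were chosen with results of these data known, and a changed share is not independent evidence.

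Across the 18 libraries, with each organ's mean removed, Timp1 and Mmp14 had a Pearson r of 0.933, Mmp14 and Thbs1 of 0.876, Timp1 and Thbs1 of 0.869, and Lox and Fn1 of 0.867. With the mean of each organ and treatment removed, which leaves only the spread among replicates, these were 0.863, 0.798, 0.840 and 0.623. Timp1 and Timp2 gave -0.118 and -0.322. Outside the 10, among 8823 genes measured in every organ, the patterns most like that of Timp1 over the 18 libraries included those of Irg1 (r = 0.950) and Irak3 (0.947). Those most like Mmp14 were Icam1 (0.955), Il1r1 (0.951) and Lcn2 (0.946), and those most like Thbs1 included Rbms1 (0.978) and Rela (0.931). For Lox they were Hp (0.931), Tacc1 (0.918) and Itga5 (0.896), for Fn1 Nup188 (0.959), Fasn (0.942) and Pcdhgc3 (0.938), and for Timp2 Tns1 (0.934), Tshz2 (0.910) and Fermt2 (0.903). The first gene for Timp3 was Gpr146 (0.888), for Mmp2 Il34 (0.884), for Mmp3 Adm (0.899) and for Spp1 Man2c1 (0.905). All points share the same libraries and the same treatment split, so these are descriptions without a test.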

How the data were processed

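RNA of liver, intestine and lung was sequenced in 18 libraries, 6 groups of n = 3, grouped by the sample titles (for H2 replicates 2 and 3 the description fields give the gas with a different digit). Per the labels' protocols, the extraction kit was miRNeasy Micro and the library kit TruSeq stranded mRNA. Per the submitters' processing notes, the tools included Cufflinks 2.2.1 and TopHat2 2.0.13, with Bowtie2 2.2.3 and SAMtools 0.1.19, and the genome was mm10. The sources used here give neither annotation nor options. The authors deposited FPKM for 24346 symbols, 4694 of them at 0 in every library. FPKM tables hold no counts, so an implied depth was estimated from the peak that 1 fragment makes in FPKM times transcript length; it gives no interval for single values. The file of control lung 2 has 1 further column, which equals control lung 3 and was not used.

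Tests ran in limma 3.58.1 (R 4.3.3) on log2(FPKM + 1) (empirical Bayes trend, two-sided), over genes with a mean of at least 1 FPKM, with Benjamini-Hochberg adjustment over all tested genes and calls under 0.05. Each organ was fitted on its 6 libraries. All 18 libraries, counted as independent with 1 mean per group, entered the test of the average organ change and the moderated F test of organ differences. The fits were tried on simulated data with independent libraries and 1 spread per gene. Such data cannot show how the tests behave where organs share a mouse or the groups spread unequally. TIMP shares were compared by exact permutation tests.

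The genes named are the 10, the called genes of each role list or otherwise up to 2 with the smallest p, the 3 genes with the nearest pattern to each of the 10 (up to 3 given for 6 of them, and the first for the other 4), and defining markers. A few of these genes are not reported here. The 19 lists (7 of roles and 12 of cell types) name 219 symbols, and 218 were matched, 4 through an older symbol. The members and lists were chosen with earlier results of these data known. Positions are from GENCODE vM21 and promoters from RefSeq GRCm38.p6. The alternatives tried were a pseudocount of 0.1 or 5, no filter or one at a mean of 5 FPKM, quantile and median-of-ratios scaling, array weights, a replicate block, all 18 libraries in 1 fit, 1 mean over organs per treatment and number, and each library left out.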

Additional observations from a re-analysis of the deposited data

Results flagged for a closer look

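The Timp2 change differed by 1.53 ± 0.36 (log2) between liver and intestine, with H2 libraries above every control in the liver and below every control in the intestine. The Timp2 change in the intestine relative to the lung was -1.46 ± 0.36, again with groups apart in opposite directions. For Spp1 the intestine relative to the lung gave -2.84 ± 0.64, with H2 libraries below every control in the intestine and above every control in the lung. The moderated F test over the 3 organs did not call either gene (limma adjusted p = 0.0604 for Timp2 and 0.0661 for Spp1), while the single contrast of intestine and lung, not adjusted over the 3 pairs of organs, gave 0.0490 for Spp1 and 0.0575 for Timp2. Fat cell transcripts in the same intestine libraries are given beside the intestinal values, and their part was not tested.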

How the results depend on the processing

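The pseudocounts, the filters, both scalings and the replicate block left the calls of the 10 genes at 0 in each organ, 5 in the mean over organs and 0 for differences between organs. The cause of the changes below was not tested. Over all genes the liver calls, 2 with the design reported, were 0 with a pseudocount of 0.1, with no filter, with a mean of at least 5 FPKM and with the replicate block, and 1 after quantile normalization. Intestine calls were 1, and 3 with the replicate block; lung calls were 1, and 2 with no filter. Calls of organ differences were 108, and 46 with a pseudocount of 0.1, 304 with 5, 348 with no filter and 28 with a mean of at least 5 FPKM.

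Array weights, whose estimation did not converge in 3 of 5 fits, called 2520 genes and 4 of the 10 in liver, 11 genes in intestine, 7137 and 8 in lung, 5655 and 7 in the mean over organs, and 4653 and 5 for organ differences, and turned liver Spp1 to -0.17. With all 18 libraries in 1 fit, liver had 445 calls, intestine 312 with 5 of the 10 (Mmp14, Thbs1, Lox, Fn1 and Spp1) and lung 818. With 1 mean per treatment and number, 16 genes and 0 of the 10 were called in the mean over organs, against 1285 and 5. Without H2 intestines 1 and 2, chosen after seeing the data, these were 172 and 1, and the intestine alone had 11. Quantile normalization turned lung Timp3 to 0.10.

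Leaving out each library gave 0 to 2834 genes and 0 to 5 of the 10 in liver (both highest without control liver 2), 2 to 28 and 0 to 1 in intestine (Timp1 without control intestine 2, Lox without H2 intestine 3), 1 to 3295 and 0 to 6 in lung (highest without control lung 3), 312 to 2814 and 2 to 6 in the mean over organs (lowest without control liver 3), and 27 to 978 and 0 to 4 for organ differences. Signs changed for liver Spp1 (-0.15 to 0.22), lung Timp3 (-0.29 to 0.042), lung Mmp2 (-0.68 to 0.14), lung Fn1 (-0.35 to 0.015) and Timp2 in the mean over organs (-0.037 to 0.16). FPKM hold no counts, so counting error is unknown for values under 1 FPKM, as for Lox, Mmp2 and Mmp3 in the liver.

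The replicate numbers of the labels were tried as a block. Of 9 pairs of the same organ and number, 3 correlated over 0.1 (r from -0.115 to 0.325), and 6 of 18 libraries correlated best with their own number in the other group. Of 18 pairs of the same treatment and number in different organs, 4 were over 0.1 (r from -0.182 to 0.212, mean 0.026). Of 36 such pairs with different numbers, 3 were over 0.1 (r from -0.237 to 0.266, mean -0.012). The numbers were not taken to pair the libraries in the main fits, and these values do not show that no organs share a mouse. With the block, 1337 genes and 5 of the 10 were called in the mean over organs, 91 genes for organ differences and 1 in lung.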

Other observations

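Replicates of the 10 genes spread unequally by treatment. In the lung, the SD of log2(FPKM + 1) was smaller in H2 than in control libraries for 9 of the 10 genes and for 73.0% of all 13424 tested genes, as with Timp1 (0.201 in H2 lungs and 1.22 in control lungs) and Mmp14 (0.0688 in H2 lungs and 0.752 in control lungs). In the liver it was smaller in H2 libraries for 4 of the 7 tested genes and for 72.8% of all genes. In the intestine it was smaller in H2 libraries for 3 of the 10 and for 39.6% of all genes, with Lox at 0.942 in H2 and 0.0901 in control intestines.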
